A study of Mus musculus with 8 samples.

Results

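Pleiotrophin (Ptn), its relative midkine (Mdk), the receptors Ptprz1 and Alk and the 4 syndecans (Sdc1, Sdc2, Sdc3 and Sdc4) were followed on 8 mouse expression arrays. Members were the probe sets annotated to exactly 1 of these 8 gene symbols, which gave 21 of the 45101 probe sets on the array, for 8 of 18194 genes with a symbol. The members were chosen by the NIH3T3 values of these arrays, since a Ptn probe set showed the largest drop in NIH3T3 cells labelled as expressing PGC7, and the difference between PGC7 and control in NIH3T3 is given for every member as a description without a test. Among the 21973 tested probe sets with 1 gene symbol, Ptn 1416211_a_at ranked 1 at -8.21 on the log2 scale, and Vip, ranked 2, stood just behind at -7.99. The size depends on the pseudocount and scaling, between -8.91 and -7.14 over the alternatives, and Ptn ranked 2 with no filter, behind another probe set of Ogn, and without the uncloned array, behind Vip.

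PGC7, also named Stella and Dppa3, is a maternal and germ cell protein. The arrays fell into 4 groups. NIH3T3, a mouse embryonic fibroblast line, was represented by 3 arrays labelled PGC7 (clone 1, clone 2 and an uncloned mixture of expressing clones) and 1 control array. B16F10, a mouse melanoma line, was represented by 3 arrays labelled PGC7 (clones 1, 2 and 3) and 1 control array. The labels describe target cells incubated overnight in supernatants containing virus and polybrene, and the sources used here do not give whether controls received virus too. The genotype label of all 6 PGC7 samples reads PGC8 and pre-cloned, so the titles set the groups. Each clone may carry differences of its own, the uncloned mixture may share cells of origin with the clones, and nothing says that the cultures were infected separately, so the spread between PGC7 arrays may be partly technical. With 1 control per line the control has no spread of its own, and cell line cannot be told apart from array batch.

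Signals are deposited MAS5 intensities in arbitrary units, with every array multiplied to a trimmed mean of 500. Log2 differences are differences of log2(signal + 9), which understates the change of dim probe sets, and a probe set was tested when its mean log2 value in at least 1 line reached the overall median, a signal of 49.3. Signals of different probe sets are not comparable as levels. The Dppa3 probe set 1424295_at read 29.7, 55.4 and 101 in NIH3T3 PGC7 arrays, against 69.8 in the NIH3T3 control, and 70.0, 117 and 71.0 in B16F10 PGC7 arrays, against 23.5 in the B16F10 control. The NIH3T3 arrays thus did not show the labelled overexpression at this probe set, and the sources used here do not give whether the probe set reads the viral transcript. "PGC7" below is the name in the titles, and every direction rests on it. The 10 fibroblast markers summed to between 150194 and 168946 in NIH3T3 PGC7 arrays and 188817 in the NIH3T3 control, against 23850 to 27129 in B16F10 PGC7 arrays and 22985 in the B16F10 control. The 9 melanocyte markers summed to between 1349 and 2365 in NIH3T3 PGC7 arrays and 903 in the NIH3T3 control, against 145085 to 167279 in B16F10 PGC7 arrays and 128377 in the B16F10 control. Of the 9, Tyrp1, Dct, Mlana, Pmel and Tyr were under 49.3 on all 4 NIH3T3 arrays. Gpnmb read 656, 1575 and 708 in NIH3T3 PGC7 arrays, against 22.9 in the NIH3T3 control, and makes up much of the difference in that sum, while Mitf read 509 to 548 in NIH3T3 PGC7 arrays and 576 in the control. The summed markers went with both line names.

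Pleiotrophin and midkine are small secreted growth factors that bind heparin. Pleiotrophin binding to the receptor tyrosine phosphatase PTPRZ1 lowers its phosphatase activity, ALK is a receptor tyrosine kinase that has been described as a target of both ligands, and syndecans are membrane proteoglycans whose heparan sulphate chains hold such ligands at the cell surface. Fibroblasts carry several syndecans, and syndecan ectodomains can be shed by metalloproteinases.

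PGC7 is known from work on the protection and maintenance of DNA methylation, so promoter windows of the genes that the results turn on are shown with their CG dinucleotides in capitals. RefSeq windows on GRCm38.p6 run from 250 bases before the annotated start to 50 after it, and 6 of the 8 genes had one. The Ptn window, chr6:36810130-36810429 on the minus strand, belongs to the gene that chose the members. The Sdc1 window, chr12:8771146-8771445 on the plus strand, belongs to the only member gene called in B16F10. The Sdc3 window, chr4:130792287-130792586 on the plus strand, belongs to the syndecan whose probe sets all stood on opposite sides of the control in the 2 lines.
Ptn: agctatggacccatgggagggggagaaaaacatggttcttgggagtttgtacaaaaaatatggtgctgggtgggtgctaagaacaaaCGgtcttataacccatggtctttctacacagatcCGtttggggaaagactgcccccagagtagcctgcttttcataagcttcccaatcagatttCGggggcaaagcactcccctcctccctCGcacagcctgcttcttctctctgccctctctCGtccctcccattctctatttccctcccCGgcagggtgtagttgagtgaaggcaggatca
Sdc1: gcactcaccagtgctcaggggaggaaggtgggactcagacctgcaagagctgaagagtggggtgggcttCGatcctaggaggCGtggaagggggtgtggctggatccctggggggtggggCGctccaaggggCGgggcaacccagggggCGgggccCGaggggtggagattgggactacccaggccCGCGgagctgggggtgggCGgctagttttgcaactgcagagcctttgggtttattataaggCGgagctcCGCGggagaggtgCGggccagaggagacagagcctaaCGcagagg
Sdc3: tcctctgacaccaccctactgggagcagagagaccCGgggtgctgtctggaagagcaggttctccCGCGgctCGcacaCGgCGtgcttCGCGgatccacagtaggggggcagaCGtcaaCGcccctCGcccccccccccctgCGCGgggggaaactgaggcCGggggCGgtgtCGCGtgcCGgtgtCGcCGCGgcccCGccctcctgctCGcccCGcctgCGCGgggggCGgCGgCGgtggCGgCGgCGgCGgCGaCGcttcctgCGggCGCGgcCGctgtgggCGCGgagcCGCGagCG

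The letters CG were searched for, a motif that reads the same on both strands. The Ptn window held 6 CG dinucleotides, and 43.6% of the 32851 RefSeq windows held fewer. The Sdc1 window held 14, with 63.7% of windows holding fewer, and the Sdc3 window held 44, with 97.8% holding fewer. The median over all windows was 7, and 94.6% held at least 1. The letters GGGCGG, searched for on both strands, contain a CG of their own. This GC box was found 0 times in the Ptn window, 3 times in the Sdc1 window and 3 times in the Sdc3 window, and 35.7% of all windows held at least 1. These counts describe the reference sequence, and methylation was not measured on these arrays.

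Of the 21 member probe sets, 16 passed the filter, covering 6 of the 8 genes. All 4 ligand probe sets and 12 of 13 syndecan probe sets passed, and 0 of 4 receptor probe sets did. In NIH3T3, 3 of the 16 stood at least 2-fold below the control in all 3 PGC7 arrays and 0 stood at least 2-fold above it, where 4.74% and 3.85% of all tested probe sets did so. All 3 were Ptn probe sets, and nothing is read from this count since the contrast chose the members.

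Ptn differed most at 1416211_a_at, which read 10.6, 14.9 and 10.6 in NIH3T3 PGC7 clone 1, clone 2 and uncloned cells, against 6170 in the NIH3T3 control. The PGC7 arrays lay close together, at 12.0 ± 2.48 (SD, n = 3), far below the control. The log2 differences of the 3 arrays ran between -8.30 and -8.02. Within each array, the probe set lay at percentiles 24.5 to 27.1 of all probe sets in the PGC7 arrays, against percentile 97.5 in the control. The arrays used here come with no detection call, so whether such a signal is above background cannot be said.

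The second Ptn probe set, 1448254_at, read 59.6, 61.5 and 53.5 in NIH3T3 PGC7 arrays, against 9620 in the NIH3T3 control. The log2 difference averaged -7.16, between -7.27 and -7.09 in the 3 arrays. This probe set ranked 6 among the drops of the 21973, and its PGC7 signals still lay at percentiles 49.0 to 50.2 of their arrays, against percentile 98.6 in the control. The third, 1443173_at, is the one with the highest mean log2 value over all 8 arrays and read 39.3, 61.0 and 29.5 in NIH3T3 PGC7 arrays, against 363 in the NIH3T3 control. Its mean log2 difference was -2.88 (-3.27 to -2.41), placing it at rank 186. The 3 Ptn probe sets therefore shared a direction in every PGC7 array, including the uncloned mixture, and differed in size.

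Of the 10 fibroblast markers, 5 lay below the NIH3T3 control in all 3 PGC7 arrays (Col1a1, Col1a2, Pdgfrb, Thy1 and Lum) and 3 lay above it (Vim, Col3a1 and Dcn). Of all tested probe sets, 38.3% lay wholly below the NIH3T3 control and 28.9% wholly above it, so nothing is read from the marker counts. The collagen gene Col1a1 read 367, 503 and 703 in NIH3T3 PGC7 arrays, against 23293 in the NIH3T3 control, and Thy1 read 790, 873 and 2487, against 4735. Another collagen gene, Col3a1, read between 27100 and 31937 in NIH3T3 PGC7 arrays, against 27079 in the NIH3T3 control. A part for the state of the fibroblasts in the Ptn values was not tested.

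In B16F10, Ptn was dim in all 4 arrays at 2 of its 3 probe sets. 1416211_a_at read 1.46, 1.60 and 4.19 in B16F10 PGC7 clones, against 3.01 in the B16F10 control, and 1448254_at read 3.38, 2.88 and 1.38, against 1.51. 1443173_at read 47.4, 44.3 and 74.2 in B16F10 PGC7 clones, against 57.2 in the B16F10 control. At all 3 probe sets the control lay within the range of the clones. 1416211_a_at and 1448254_at passed the filter through NIH3T3 alone, and at such B16F10 signals the pseudocount holds the log2 change near 0, so no test of them is given. At 1443173_at the log2 change was -0.07 (SE 0.46, 95% interval -1.12 to 0.98, limma adjusted p = 0.968), and the interval covers changes of either sign. On the rescaled arrays, NIH3T3 PGC7 read higher than B16F10 PGC7 without overlap at 1416211_a_at and 1448254_at, and the lines overlapped at 1443173_at. The NIH3T3 columns had been multiplied by 2.65 to 3.49 and the B16F10 columns by 1. As deposited, the ranges at 1416211_a_at overlapped too. The share of all tested probe sets without overlap is not given, so nothing is read from these ranges.

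Mdk, read by 1416006_at alone, gave 76.1, 128 and 62.9 in NIH3T3 PGC7 arrays, against 83.5 in the NIH3T3 control. The control lay inside the range of the PGC7 arrays, whose mean was 89.1 ± 34.5 (SD, n = 3), and the log2 differences ran between -0.36 and 0.57. In B16F10 the probe set read 45.4, 39.9 and 65.4 in PGC7 clones, against 45.3 in the control, again inside the range of the clones. The B16F10 change was 0.10 (SE 0.47, limma adjusted p = 0.950), with a 95% interval of -0.97 to 1.17. Between NIH3T3 PGC7 and B16F10 PGC7 the log2 difference was 0.70 (95% interval -0.06 to 1.45), which missed the threshold at a limma adjusted p of 0.0878. The Mdk probe set passed the filter through NIH3T3 alone, the line where it reads higher, so nothing is read from either test.

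**Figure D1:**
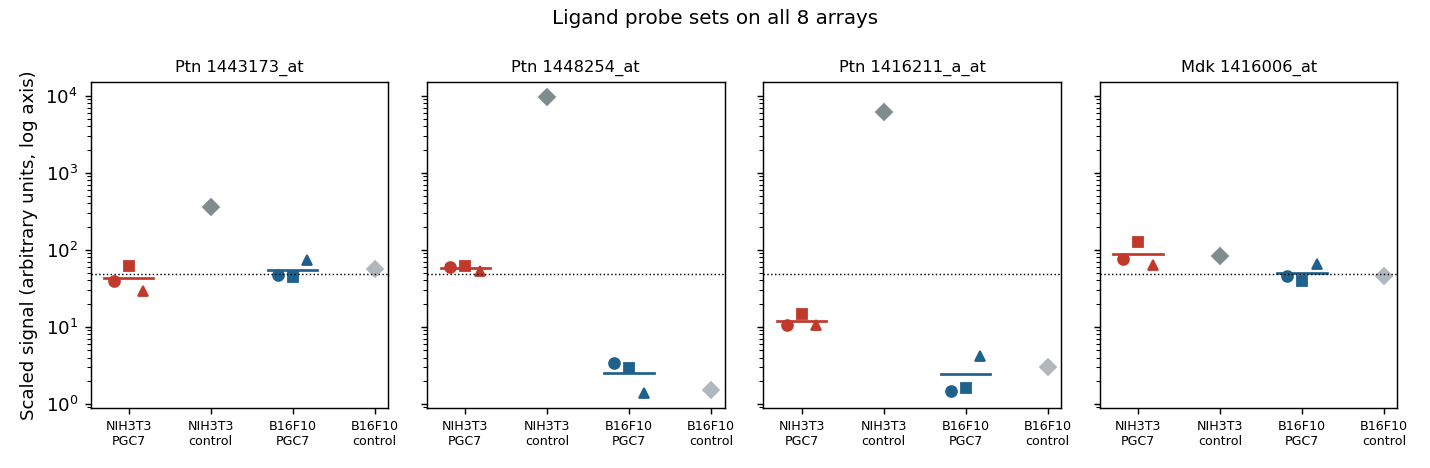
Scaled signal in arbitrary units on a log axis for the 3 Ptn probe sets and the Mdk probe set, 1 point an array: circle clone 1, square clone 2, triangle the uncloned mixture in NIH3T3 or clone 3 in B16F10, diamond the control. Bars are means of the 3 PGC7 arrays and the dotted line is the filter signal of 49.3; the NIH3T3 control stands above all 7 other arrays in each Ptn panel and inside the NIH3T3 PGC7 range for Mdk.

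The receptors were dim throughout. All 4 probe sets stayed at or below 43.9 in each of the 8 arrays, under the filter signal. Ptprz1 1452284_at read 15.3, 3.53 and 4.52 in NIH3T3 PGC7 arrays and 31.5 in the NIH3T3 control, and 1.94, 7.84 and 41.9 in B16F10 PGC7 clones and 1.13 in the B16F10 control. The other Ptprz1 probe sets, 1427019_at and 1418690_at, ran between 0.393 and 22.5 over the 8 arrays. Alk 1449987_at read 43.9, 35.2 and 23.2 in NIH3T3 PGC7 arrays and 36.5 in the NIH3T3 control, and 2.10, 12.9 and 36.4 in B16F10 PGC7 clones and 3.99 in the B16F10 control. The PGC7 values of Ptprz1 1452284_at lay below the control in NIH3T3 and above it in B16F10, and those of Alk lay on both sides of the control in both lines. No test was made on these 4 probe sets, and at such signals no difference is read from them. Of the 3 listed relatives and ligands of ALK, 1 matched a measured gene and 0 passed the filter.

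Most syndecan probe sets lay above the control in NIH3T3 PGC7 arrays and below it in B16F10 PGC7 clones. In NIH3T3, 9 of the 12 syndecan probe sets that passed the filter read higher in all 3 PGC7 arrays than in the control and 1 read lower, where 28.9% and 38.3% of all tested probe sets did. In B16F10 the counts were 0 higher and 8 lower, where 37.0% and 32.2% of all tested probe sets did. The median log2 difference of the 12 was 0.40 in NIH3T3, against -0.07 over all 25236 tested probe sets, and -0.38 in B16F10, against 0.02. Probe sets of a gene read the same transcripts, so these counts are over 4 genes. The 12 include Sdc1 1448158_at, Sdc3 1420853_at and Sdc3 1436482_a_at, which passed the filter through NIH3T3 alone. Both of these Sdc3 probe sets are among the 8 lower in B16F10. The NIH3T3 contrast is the one that chose the members, so the counts and medians are given as a description. None of the 12 reached the 2-fold limit in all 3 PGC7 arrays of either line, where 8.59% of tested probe sets did in NIH3T3 and 2.81% in B16F10.

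Sdc2, a syndecan of mesenchymal cells, read 4489, 4835 and 4219 in NIH3T3 PGC7 arrays, against 2564 in the NIH3T3 control, at 1417011_at. All PGC7 arrays lay above the control, with log2 differences between 0.72 and 0.91. Sdc2 1448545_at read 4579, 4462 and 4174 in NIH3T3 PGC7 arrays, against 2716 in the NIH3T3 control. Sdc2 1417012_at read 3443, 3293 and 3822, against 2467. The mean log2 differences of these 2 probe sets were 0.69 and 0.51, and again no PGC7 array overlapped the control. One more Sdc2 probe set, 1431474_at, failed the filter, reading 23.2, 20.8 and 26.4 in NIH3T3 PGC7 arrays and 39.3 in the NIH3T3 control, and 7.84 or less in B16F10.

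In B16F10, Sdc2 1417011_at read 831, 771 and 717 in PGC7 clones, against 988 in the control, a log2 change of -0.35 (SE 0.14, limma adjusted p = 0.279). 1417012_at read 383, 372 and 380 in PGC7 clones, against 457 in the control, a log2 change of -0.27 (limma adjusted p = 0.424). The clones lay below the control at both, without passing the test. At 1448545_at the clones read 559, 468 and 601, around the control's 565, with a log2 change of -0.07 (limma adjusted p = 0.896).

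Sdc3, known as N-syndecan and as a neuronal receptor for pleiotrophin, was higher in all NIH3T3 PGC7 arrays at each of its 3 probe sets. 1450027_at read 857, 498 and 477 in NIH3T3 PGC7 arrays, against 313 in the NIH3T3 control, with clone 1 standing above the other PGC7 arrays. 1420853_at read 282, 275 and 220 in NIH3T3 PGC7 arrays, against 138 in the NIH3T3 control. 1436482_a_at read 367, 337 and 251, against 162. The mean log2 differences were 0.89, 0.86 and 0.92 in that order of probe sets, so they lay close together while single arrays ran between 0.59 and 1.43.

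In B16F10 the Sdc3 probe sets lay on the other side of the control. 1450027_at read 143, 119 and 155 in B16F10 PGC7 clones, against 164 in the B16F10 control (log2 change -0.24, limma adjusted p = 0.810). 1420853_at read 37.1, 48.0 and 34.9 in PGC7 clones, against 78.3 in the control (log2 change -0.84, SE 0.33, limma adjusted p = 0.274). 1436482_a_at read 3.31, 15.2 and 4.45, against 20.8, a mean log2 difference of -0.91. All clones were below the control at all 3 probe sets, and 1450027_at and 1420853_at did not pass the test. At 1436482_a_at all 4 B16F10 arrays lay under the filter signal, and at 1420853_at the 3 PGC7 arrays did. Both probe sets passed the filter through NIH3T3 alone. No test of 1436482_a_at is given for that reason, and little is read from the test of 1420853_at.

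Sdc1, a syndecan prominent on epithelial and plasma cells, was close to the control in NIH3T3. At 1415943_at it read 3779, 4256 and 3917 in NIH3T3 PGC7 arrays, against 3478 in the NIH3T3 control, with log2 differences between 0.12 and 0.29. 1437279_x_at read 2177, 1949 and 2095 in NIH3T3 PGC7 arrays, against 1816 in the control, and 1448158_at read 1486, 1793 and 1674, against 1338. These probe sets lay above the control in every PGC7 array by mean log2 differences of 0.19, 0.19 and 0.30. At 1415944_at the PGC7 arrays read 963, 1053 and 786, on both sides of the control's 863, with a mean log2 difference of 0.10.

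Sdc1 gave the single call among members in B16F10. At 1415943_at it read 654, 578 and 573 in B16F10 PGC7 clones, against 1009 in the B16F10 control. The clones averaged 602 ± 45.6 (SD, n = 3) and did not overlap the control. Sdc1 fell by 0.74 on the log2 scale (SE 0.14, 95% interval -1.06 to -0.42), with a limma Benjamini-Hochberg adjusted p of 0.0496. It was the 1 member probe set of 16 that passed, where 1.19% of all tested probe sets passed in either direction and 0.265% passed downward. At an unadjusted p under 0.05, 0 members were higher and 5 were lower by limma. Several of the 5 are probe sets of the same gene, Sdc1. No share of all tested probe sets is given at that unadjusted threshold, so nothing is read from this split.

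The other Sdc1 probe sets went the same way in B16F10 without passing. 1437279_x_at read 1323, 1051 and 1036 in PGC7 clones, against 2071 in the control (log2 change -0.87, SE 0.17, limma adjusted p = 0.0525). 1415944_at read 302, 270 and 237 in PGC7 clones, against 565 in the control (log2 change -1.05, SE 0.22, limma adjusted p = 0.0673). At both, all clones lay below the control. 1448158_at was near the filter signal in B16F10, at 36.0, 19.8 and 73.5 in PGC7 clones and 54.4 in the control, and the clones lay on both sides of it (log2 change -0.42, SE 0.48, limma adjusted p = 0.746). This probe set passed the filter through NIH3T3 alone, so little is read from its B16F10 test.

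The call of 1415943_at sat at the edge of the threshold. It held in 4 of 14 alternatives and was lost in 10, with adjusted p-values between 0.0141 and 0.179 and log2 changes between -1.24 and -0.69. Leaving out B16F10 clone 1, 2 or 3 gave adjusted p-values of 0.115, 0.122 and 0.179, and leaving out NIH3T3 clone 1 or 2, which share the estimate of spread, gave 0.0877 and 0.0743. Without the uncloned NIH3T3 mixture the call held, at a limma adjusted p of 0.0141. The list of 8 glial genes, of which 6 were measured, also differed between the B16F10 groups. Its sum was 18446 to 21091 in PGC7 clones, against 11949 in the control, where S100b read 3734, 3632 and 4005 in the clones and 1557 in the control; 4 of the 6 genes lay above the control in all 3 clones and 1 below it. All 9 melanocyte markers lay above the B16F10 control in all 3 clones. Of all tested probe sets, 37.0% lay wholly above the B16F10 control and 32.2% wholly below it. A part for these differences in the Sdc1 result was not tested.

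Sdc4, a syndecan of focal adhesions, differed little between PGC7 and control. 1448793_a_at read 1349, 1124 and 889 in NIH3T3 PGC7 arrays, on both sides of the NIH3T3 control's 1310, and 1339, 1148 and 1216 in B16F10 PGC7 clones, on both sides of the B16F10 control's 1324. 1417654_at read 418, 391 and 389 in NIH3T3 PGC7 arrays, all below the NIH3T3 control's 474, with a mean log2 difference of -0.25. In B16F10 it read 2583, 2309 and 2557 in PGC7 clones, around the control's 2501. The B16F10 changes were -0.10 and -0.01 for 1448793_a_at and 1417654_at, with limma adjusted p-values of 0.876 and 0.983. Scaled on the poly-A spikes, both Sdc4 probe sets turned to 0.04 above the control in NIH3T3.

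**Figure D2:**
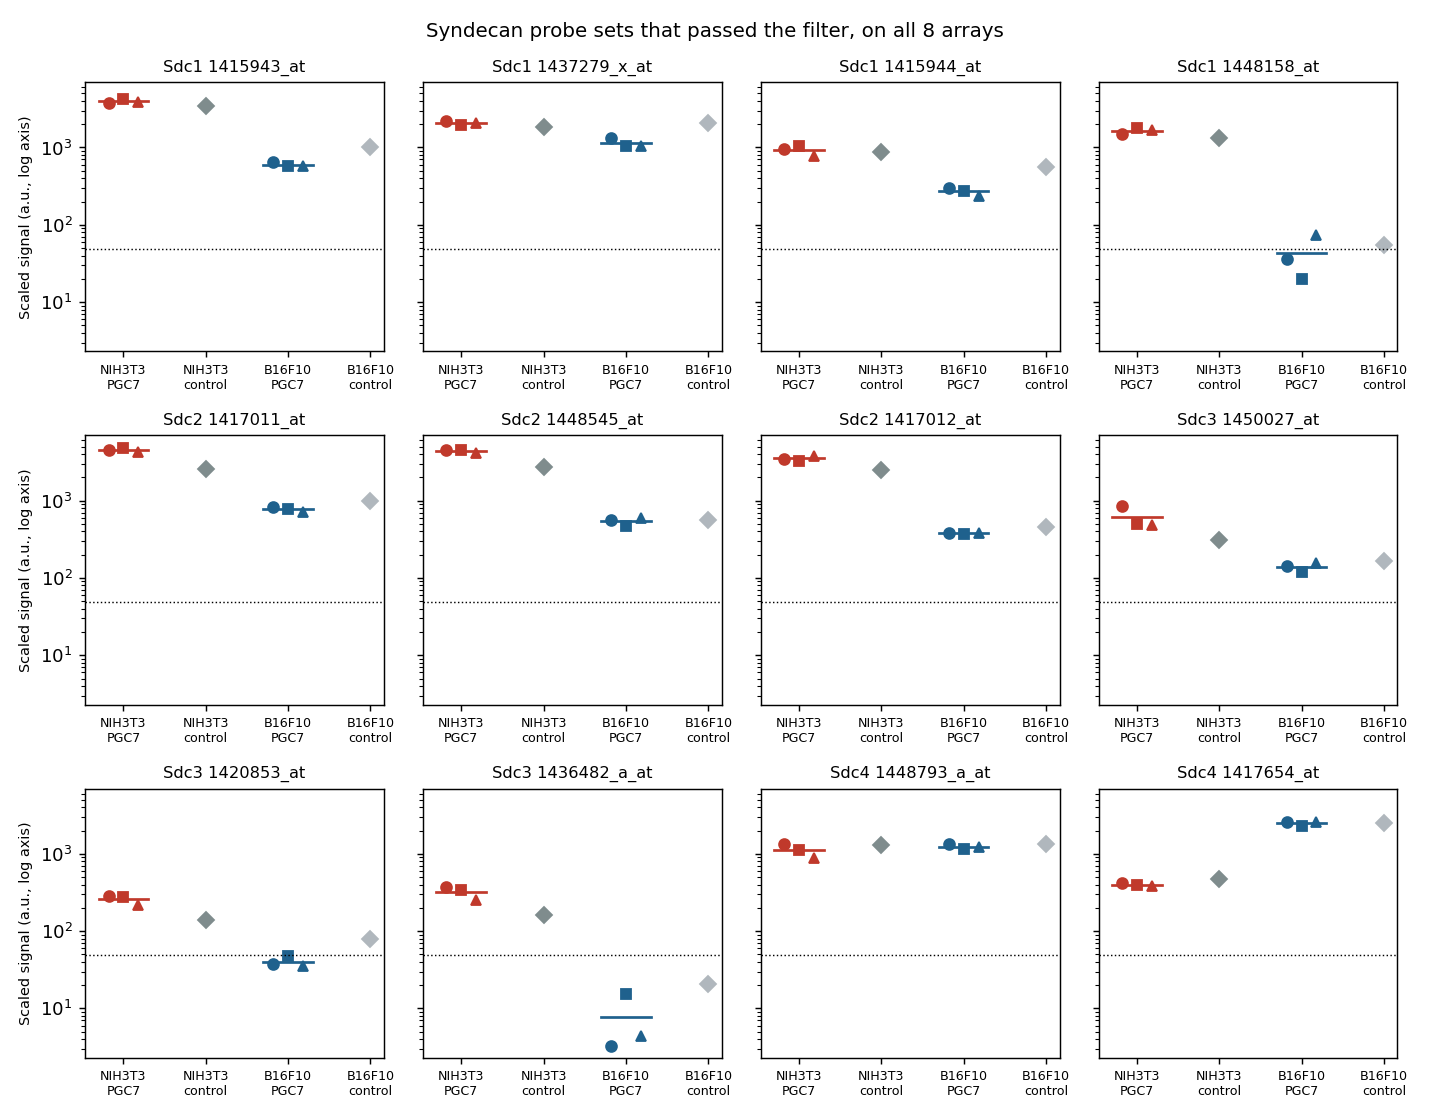
Scaled signal in arbitrary units on a shared log axis for the 12 syndecan probe sets that passed the filter, 1 point an array: circle clone 1, square clone 2, triangle the uncloned mixture in NIH3T3 or clone 3 in B16F10, diamond the control. Bars are means of the 3 PGC7 arrays and the dotted line is the filter signal of 49.3; Sdc1, Sdc2 and Sdc3 stand higher in NIH3T3 PGC7 than in B16F10 PGC7 at all 10 of their probe sets, and levels are not comparable between panels.

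**Figure D3:**
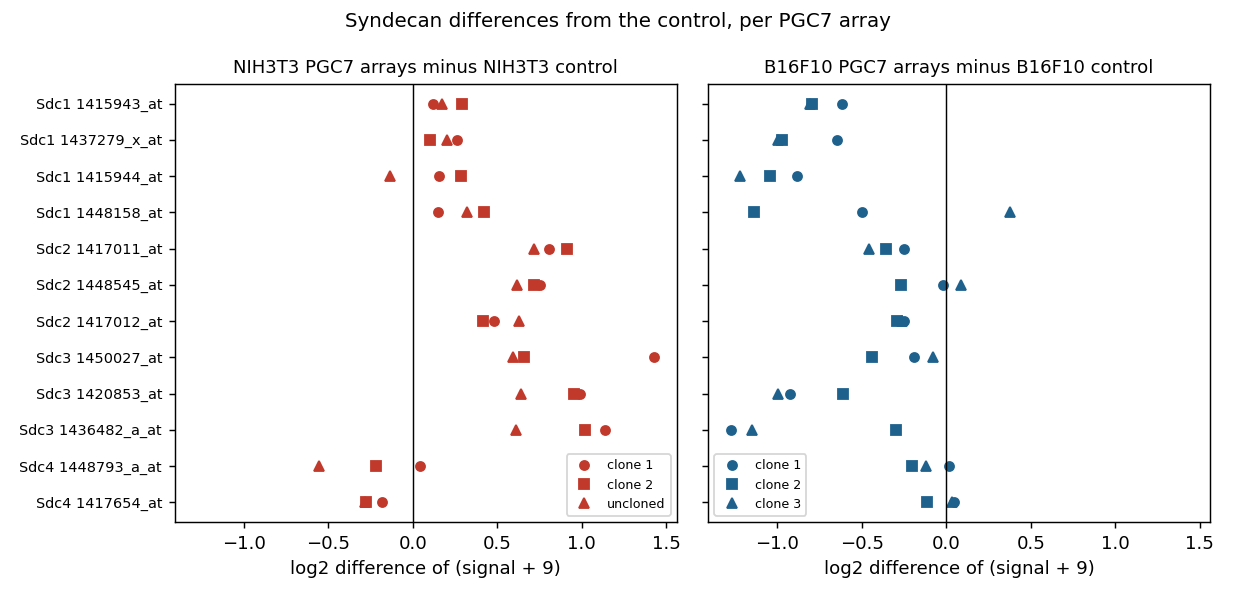
Log2 difference of (signal + 9) between each PGC7 array and the control of its line for the 12 syndecan probe sets, NIH3T3 on the left and B16F10 on the right; the vertical line marks no difference. In NIH3T3, 9 probe sets lie wholly to the right of the line and 1 wholly to the left, and in B16F10, 8 lie wholly to the left and 0 wholly to the right.

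Because scaling can move all probe sets together, the syndecans were set against the median of all tested probe sets. Relative to it, the Sdc2 probe sets stood between 0.58 and 0.89 higher and the Sdc3 probe sets between 0.94 and 1.00 higher in NIH3T3 PGC7 arrays, on the log2 scale. As deposited, relative to the median, these ranges were 0.56 to 0.86 and 0.86 to 0.92. Scaled on the poly-A spikes they were 0.60 to 0.90 and 0.92 to 0.99, and with quantile normalization 0.49 to 0.80 and 1.12 to 1.25. In B16F10 all 4 Sdc1 probe sets stayed below the median under all of these scalings, between -1.09 and -0.43. The end nearest the median belongs to 1448158_at, which passed the filter through NIH3T3 alone and whose clones lay on both sides of the control. Little is read from that probe set. Sdc1 1415944_at in NIH3T3 changed sign as deposited, at -0.03.

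Most tested probe sets were called between the lines, syndecans among them. Of the 13 member probe sets other than Ptn, 10 were higher and 1 was lower in NIH3T3 PGC7 than in B16F10 PGC7, where 40.2% of all tested probe sets were called higher and 30.9% lower (71.1% in all). Sdc1 1448158_at, Sdc3 1420853_at and Sdc3 1436482_a_at are among the 10 but passed the filter through NIH3T3 alone, the line where they are high. Mdk, which was not called, passed through NIH3T3 alone too. Nothing is read from the tests of these probe sets. With 71.1% of all tested probe sets called, nothing particular to the syndecans is read from the counts. Sdc1 was higher by 0.87 at 1437279_x_at (limma adjusted p = 0.000192), 1.75 at 1415944_at and 2.71 at 1415943_at on the log2 scale. Sdc2 was higher at all 3 tested probe sets, by 2.53, 3.01 and 3.18, and Sdc3 at 1450027_at, by 2.02. The log2 differences of Sdc1 1448158_at, Sdc3 1420853_at and Sdc3 1436482_a_at were 5.12, 2.45 and 4.35, given as a description. Sdc4 1417654_at went the other way, at -2.61 (limma adjusted p = 1.35e-07), while 1448793_a_at differed by -0.16 (limma adjusted p = 0.383), so the Sdc4 probe sets disagreed. The controls ordered the lines in the same way at each of the called probe sets except 1437279_x_at, where the NIH3T3 control read 1816 and the B16F10 control 2071.

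The deposited NIH3T3 columns were on a lower scale than the B16F10 columns, and the line differences depend on the rescaling. As deposited, Sdc1 1437279_x_at turned to -0.74 and Mdk to -0.66, and the calls of Sdc1 1415944_at, at 0.16, and Sdc3 1450027_at, at 0.45, were lost. The median line difference over all tested probe sets was then -1.33, against 0.19 with rescaled arrays, and 14.5% of the calls were higher in NIH3T3, against 56.5%. On the poly-A spikes 39.9% were higher.

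The genes that act with these ligands and receptors were taken from 8 lists with 89 entries, of which 85 matched and 67 passed the filter, each gene represented by its probe set with the highest mean log2 value. In NIH3T3, 11 of the 67 rose and 9 fell by limma, where 7.87% and 7.35% of all 11643 tested genes did. In B16F10, 1 rose and 0 fell, where 1.18% and 0.386% of tested genes did. At an unadjusted p under 0.05 by limma, 9 were higher and 2 lower. The share of all tested genes at that unadjusted threshold is not given, here or for the single lists below. Nothing is therefore read from the unadjusted counts, and 77.7% of the 300 probe sets called in B16F10 were higher.

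Among other binding partners of pleiotrophin and midkine, 2 of 12 rose and 2 fell in NIH3T3 (list median -0.21, against -0.07 over all tested probe sets). Nrp1, the semaphorin and VEGF co-receptor neuropilin 1, read 389.5, 428.6 and 391.7 in NIH3T3 PGC7 arrays, against 4798 in the NIH3T3 control, and fell by 3.55 on the log2 scale (limma adjusted p = 1.45e-05). Itgb3, the integrin beta 3 chain, read 151, 130 and 681, against 11.3, with the uncloned mixture far above the clones, and rose by 3.62 (limma adjusted p = 0.0182). Itga6, an integrin alpha chain, rose by 2.34, and Lrp6, a Wnt co-receptor, also fell. In B16F10, 0 of the 12 passed by limma at the leading probe set (2 higher and 1 lower at an unadjusted p under 0.05), and 1 further probe set of nucleolin (Ncl, 1456528_x_at) fell by 1.43, while the leading one, 1415771_at, had a change of -0.33 (limma adjusted p = 0.286).

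Among glypicans and other heparan sulphate core proteins, 2 of 6 rose and 1 fell in NIH3T3 (median -0.39). Gpc1, a lipid-anchored heparan sulphate proteoglycan, read 8020, 8260 and 7899 in NIH3T3 PGC7 arrays, against 1659 in the NIH3T3 control, and rose by 2.27 (limma adjusted p = 2.82e-05). The hyaluronan receptor Cd44 rose by 0.91, and agrin (Agrn) fell by 0.79. In B16F10, 0 of the 6 passed by limma, and 1 was higher at an unadjusted p under 0.05.

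Of 20 tested genes for heparan sulphate chain synthesis, 2 rose and 2 fell in NIH3T3 (median 0.37). Hs2st1, a 2-O-sulphotransferase, rose by 0.73 and the sulphate donor synthase Papss1 rose too, while Papss2 fell by 1.32 and the chain polymerase Ext1 by 0.80. In B16F10 the single rise of all lists was Hs3st1, a 3-O-sulphotransferase. It read 238, 145 and 226 in PGC7 clones, against 22.0 in the control (log2 change 2.74, limma adjusted p = 0.0228). Hs3st1 passed the filter through B16F10 alone, where only the PGC7 clones were high, so nothing is read from this call. With a control signal that low, the size of the change also depends on the pseudocount. Of 8 tested genes for chain editing and syndecan shedding, 0 rose and 2 fell in NIH3T3 (median 0.08). These were the metalloproteinase inhibitor Timp3, by 2.31, and the metalloproteinase Mmp2, by 1.32. Sulf2, an enzyme that removes 6-O-sulphates, disagreed between its probe sets in NIH3T3. The leading one, 1442408_at, read 875, 774 and 624 in NIH3T3 PGC7 arrays, against 536 in the NIH3T3 control (log2 change 0.48, limma adjusted p = 0.253), while 1447602_x_at fell by 5.03 and 1430388_a_at fell by 4.05. In B16F10, 0 of the 8 passed by limma at the leading probe set (1 higher at an unadjusted p under 0.05), and the sheddase Adam10 rose by 1.05 at 1450105_at only, among its 3 tested probe sets.

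Of 8 cytoplasmic partners of syndecans, 3 rose and 1 fell in NIH3T3 (median 0.49). The PDZ adaptor syntenin (Sdcbp) rose by 0.62, the trafficking protein gene Trappc4, whose product is also named synbindin, by 0.66, Actn1, an actinin, rose as well, and the membrane skeleton gene Epb41l2 fell by 0.74. Of 9 PTPRZ1 substrates and scaffolds, Git1 rose by 0.82 and Magi3 fell by 1.74 (median 0.24). Of 4 contactin partners of PTPRZ1, the adhesion molecule Nrcam rose at its leading probe set, 1434709_at, which read 195, 205 and 266 in NIH3T3 PGC7 arrays, against 3.28 in the NIH3T3 control (log2 change 4.22, list median -0.12). With a control signal that low, the size of this change depends on the pseudocount. Its other tested probe sets, 1430583_at and 1443281_at, had log2 changes of 0.63 and 0.86 and did not pass (limma adjusted p = 0.119 and 0.179). In B16F10, 0 passed in each of these 3 lists by limma, and 1 gene was higher and 1 lower at an unadjusted p under 0.05.

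**Figure D4:**
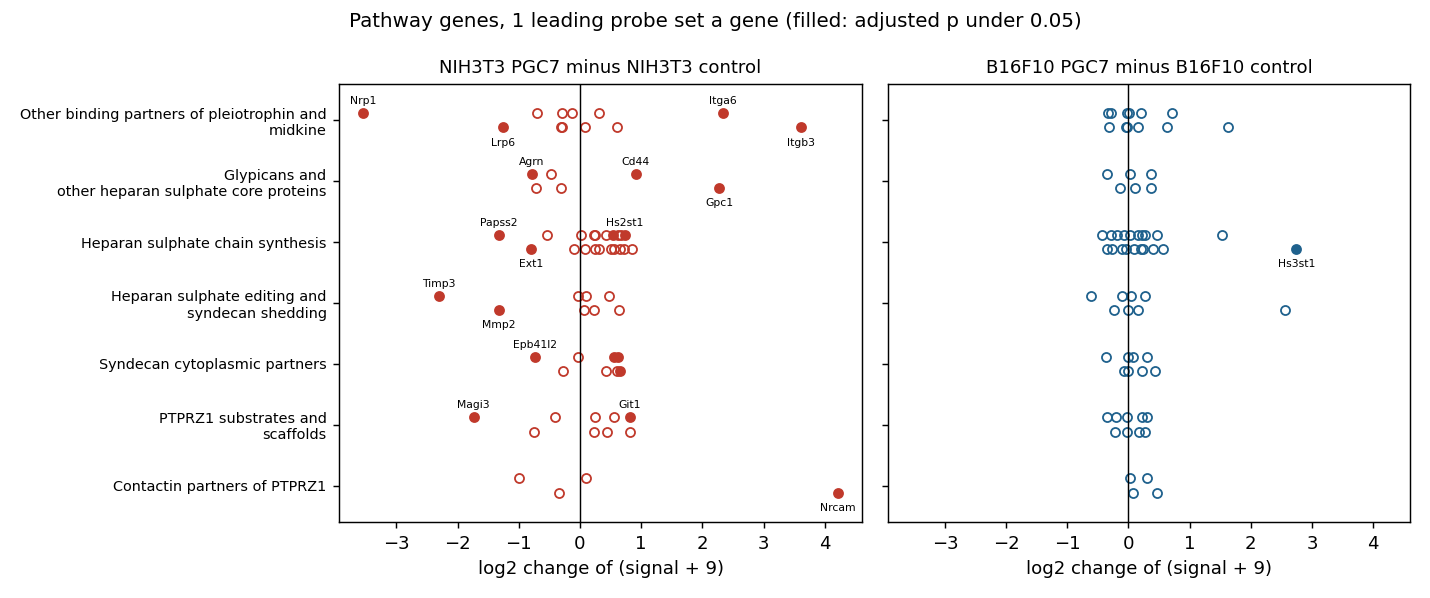
Log2 change of (signal + 9) in NIH3T3 (left) and B16F10 (right), PGC7 minus control, for the 67 tested genes in 7 of the lists, 1 point a gene at its leading probe set, with small vertical offsets for legibility; the list of ALK relatives had no tested gene. Filled points passed an adjusted p under 0.05, and those with a change of at least 0.7 in size are named: 11 rose and 9 fell in NIH3T3, and Hs3st1 alone passed in B16F10.

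Genes alike in pattern to the members were sought by Pearson correlation of log2 values over the 8 arrays, which share line and scaling, and no p is given. Nearest to Ptn 1443173_at were Zfp322a (r = 0.988), 2310075K07Rik (0.980), C1ra (0.979), Mdrl (0.963) and Cnksr3 (0.960). Nearest to Ptn 1416211_a_at, a comparison chosen after its values were seen, were Ogn (0.991), Mfap5 (0.987), Cstf2t (0.985), Anxa8 (0.985) and Islr (0.982). Ogn, which codes for the matrix proteoglycan osteoglycin, read 8.02, 7.96 and 14.2 in NIH3T3 PGC7 arrays, against 4209 in the NIH3T3 control. In both lists the NIH3T3 control array stood above the other 7, so the likeness rests on that 1 array. Nearest to Mdk were Gsc2 (0.987), Ccdc22 (0.982), Glrx2 (0.980), Ing1 (0.977) and Hspa5 (0.976), with NIH3T3 clone 2 the highest array for Mdk and for each of them.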

How the data were processed

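Total RNA of 8 samples was hybridized to Affymetrix mouse arrays, 1 array a sample. The deposited values are linear intensity signals, 1 per probe set, made by the authors with MAS5, per the submitters' processing notes; no version or settings are given in the sources used here. A trimmed mean, leaving out 2% at each end, was 143.4 to 188.7 in the NIH3T3 columns and 500 in the B16F10 columns, so each array was multiplied to 500 (factors of 2.65 to 3.49 for NIH3T3). Of 45101 probe sets, 64 controls and 19801 dim ones were left out and 25236 were tested. The platform annotation gave 1 symbol to 34958 probe sets, several to 932 and none to 9211; a probe set with several was given no name here.

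Log2(signal + 9) was fitted with limma 3.58.1 in R 4.3.3 as 4 group means over all 8 arrays, with an intensity trend in the variance prior (8.5 degrees of freedom) and two-sided tests. A control, being 1 array, was taken to have the spread of the PGC7 arrays. Calls needed a Benjamini-Hochberg adjusted p under 0.05 over all tested probe sets, and the script was tested on simulated data. The number of arrays limits the precision. Members and lists were chosen with earlier results of these data known. All member probe sets were named, with the called genes of each list, values for at most the 3 largest changes per list and line, and the 5 genes most alike in pattern to Ptn and to Mdk; further names chosen after their values were seen are the single marker genes, the further probe sets of Ncl, Adam10, Sulf2 and Nrcam, and the neighbours of Ptn. Alternatives were the deposited scale, quantile normalization, scaling on 24 poly-A spike probe sets, pseudocounts of 1 and 32, no filter, no trend, a comparison's own arrays, each PGC7 array left out and a replicate block.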

Additional observations from a re-analysis of the deposited data

Results flagged for a closer look

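At 7 syndecan probe sets every NIH3T3 PGC7 array lay above the NIH3T3 control and every B16F10 PGC7 clone below the B16F10 control. The difference between the lines in this response was not tested. For Sdc1 the mean log2 difference was 0.194 in NIH3T3 and -0.74 in B16F10 at 1415943_at, and 0.189 and -0.87 at 1437279_x_at. For Sdc2 it was 0.812 in NIH3T3 and -0.352 in B16F10 at 1417011_at, and 0.508 and -0.268 at 1417012_at. For Sdc3 it was 0.892 in NIH3T3 and -0.236 in B16F10 at 1450027_at, 0.86 and -0.842 at 1420853_at, and 0.922 and -0.906 at 1436482_a_at. Each line has 1 control array, so all probe sets of a line share that array, and the NIH3T3 contrast is the one that chose the members. Both conditions held at 7 of the 16 tested member probe sets and at 8.59% of all tested probe sets, and the 7 come from 3 genes. At Sdc3 1436482_a_at all 4 B16F10 arrays lay under the filter signal of 49.3. This probe set and Sdc3 1420853_at passed the filter through NIH3T3 alone, so the count of 7 is given as a description. Of all tested probe sets, 28.9% stood wholly above the control in NIH3T3 and 32.2% wholly below it in B16F10.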

How the results depend on the processing

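The count of calls in B16F10 was 300, and 1101 on the poly-A spikes, 177 with no filter, 70 with no trend, 2196 with the B16F10 arrays alone and 59 to 1835 when 1 PGC7 array was left out, the highest without the uncloned NIH3T3 array. Members called in B16F10 numbered 1, and 0 as deposited, with quantile normalization, with a pseudocount of 32, with no filter and with no trend, 3 on the spikes, 2 with a pseudocount of 1, 3 with the B16F10 arrays alone and 0 to 3 with 1 array left out. In NIH3T3 the count of calls was 3229, and 2127 with no trend, 1151 with the NIH3T3 arrays alone and 1999 to 6133 with 1 array left out; the count at least 2-fold one way was 2168, and 3799 with no filter. Of the 3229 calls, 50.6% were higher in NIH3T3 PGC7, against 37.0% as deposited and 74.6% on the spikes. Of the 2168, 44.8% were higher, against 56.0% with quantile normalization and 66.3% on the spikes. Of the 300 in B16F10 it was 77.7%, and 14.1% on the spikes, where the median of all tested probe sets was -0.46. Sign changes in B16F10 were Ptn 1443173_at (-0.272 to 0.050 with a B16F10 clone left out), Mdk (-0.340 on the spikes, -0.075 to 0.228 with a clone left out), Sdc2 1448545_at (-0.142 to 0.036 with a clone left out) and Sdc4 1417654_at (0.006 with quantile normalization, -0.042 to 0.039 with a clone left out), all uncalled. As deposited, Mdk (-0.659) and Sdc1 1437279_x_at (-0.736) changed sign between the lines. The cause of these changes was not tested. The clone numbers did not pair the lines, with correlations of 0.01 and -0.10 between same-numbered clones, and with the replicate block the line comparison called 17813 probe sets, against 17954, and 12 members, against 11. Dim probe sets, the receptors among them, limit what can be said.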

Other observations

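The neighbours of Ptn in the order of RefSeq genes on GRCm38.p6 were looked at after its values were seen, at their leading probe sets and without a test. Mtpn, the gene for myotrophin, read 9514, 9277 and 10840 in NIH3T3 PGC7 arrays, against 11198 in the NIH3T3 control, a log2 difference of -0.18. Creb3l2, a transcription factor gene on the other side of Ptn, read 1316, 1267 and 1070, against 826 (log2 difference 0.55). Trim24, further on the same side, read 648, 645 and 765, against 1506 (log2 difference -1.13). The diacylglycerol kinase gene Dgki, which lies next to Ptn, was dim on these arrays, at 4.83, 26.4 and 29.0 in NIH3T3 PGC7 arrays and 8.51 in the NIH3T3 control. The remaining tested neighbour, 1810058I24Rik, read 3918, 4866 and 4618, against 4893 (log2 difference -0.14). At its control signal Dgki could not have shown a drop like that of Ptn, and Ptn had been chosen for its drop, so the sizes are given side by side only.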
